A study of Rattus norvegicus with 15 samples.

Results

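Transcripts of 10 immediate early genes, Fos, Fosb, Jun, Junb, Egr1, Atf3, Ier2, Ier3, Myc and Klf6, were measured in rat hepatocytes that had been isolated and then sorted by DNA content. The genes were taken by symbol: every probe whose gene name on the array was one of the 10 was used, which gave 13 probes of 45598. Each gene entered the tests with its brightest probe, as 10 of 17055 tested features. All 13 probes were well above background on all 15 arrays, so the filter on dim probes left out no gene.

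The hepatocytes came from female Wistar rats and were sorted, after staining of DNA with Hoechst33342, into a 2c, a 4c and an 8c fraction (2c being the DNA content of unreplicated diploid cells). In each of 5 independent experiments every fraction was hybridised to 1 one-colour Cy3 expression array, so each group has n = 5. The rats were 12, 14, 6, 5 and 6 weeks old in experiments 1 to 5. The animals carried no named genetic change or treatment, and the number of animals behind an experiment and the settings of the gates are not stated. DNA content does not tell polyploid cells from cells of lower ploidy that have replicated their DNA. Undissociated liver is not among the 15 arrays, so the levels after isolation and sorting are compared between fractions and between experiments, not with intact tissue.

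Immediate early genes are transcribed within minutes of a stimulus by factors that are already present in the cell, without new protein synthesis. Growth factors, cytokines and stress reach them through MAP kinases and factors such as SRF and CREB, and many of their products are transcription factors that start the next round of transcription. In rodent liver they are known to be induced by partial hepatectomy and by the enzymatic dissociation of the tissue into single cells. Fos and Fosb encode Fos family members and Jun and Junb Jun family members, whose products pair to form the transcription factor AP-1. Egr1 and Klf6 encode zinc finger transcription factors, and Atf3 a stress-induced factor of the ATF/CREB family. Ier2 encodes a nuclear protein, Ier3 a protein that modulates cell survival and ERK signalling, and Myc a transcription factor of growth and ribosome production.

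Promoter sequences are shown for 4 of the genes because they hold the classical elements through which this family is induced, or, for Junb, the start of the gene with the widest spread between fractions. The RefSeq table of the GRCr8 assembly held 5 of the 10 genes, Fosb, Junb, Egr1, Ier2 and Klf6, each with the 250 bases before and 50 bases after the annotated start. The windows below run 5′ to 3′ on the gene's strand, and capitals mark the motif found. Positions count from the annotated start, with -1 as the last base before it. They are chr18:26736928-26737077 (plus strand) for Egr1, chr19:40399223-40399372 (plus) for Ier2, chr19:40080976-40081125 (plus) for Junb, each from -150 to -1, and chr17:69458579-69458728 (minus) for Klf6, from -250 to -101.
Egr1: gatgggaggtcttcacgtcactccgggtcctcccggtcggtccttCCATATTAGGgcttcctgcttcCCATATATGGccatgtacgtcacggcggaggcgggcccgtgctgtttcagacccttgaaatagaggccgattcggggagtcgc
Klf6: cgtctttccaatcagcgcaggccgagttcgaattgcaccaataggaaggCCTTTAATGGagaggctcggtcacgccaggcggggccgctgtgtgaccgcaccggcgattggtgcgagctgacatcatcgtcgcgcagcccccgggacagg
Ier2: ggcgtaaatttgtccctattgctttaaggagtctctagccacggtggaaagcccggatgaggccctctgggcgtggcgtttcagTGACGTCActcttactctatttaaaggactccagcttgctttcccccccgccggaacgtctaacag
Junb: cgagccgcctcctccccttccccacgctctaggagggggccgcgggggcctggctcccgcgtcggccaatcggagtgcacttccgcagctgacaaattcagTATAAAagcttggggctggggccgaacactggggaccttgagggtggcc

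The capitals in Egr1 and Klf6 are CArG boxes, the element to which SRF binds. Egr1 held a CArG box at -105 to -96 and another at -83 to -74, and Klf6 held 1 at -201 to -192. On both strands, 1.5% of all 33469 promoters in the table held a CArG box. The capitals in Ier2 are the cyclic AMP response element TGACGTCA at -66 to -59, found in 1.59% of promoters. The capitals in Junb are a TATA box, TATAAA, at -49 to -44, and Fosb held the same letters on the opposite strand at -180 to -175. These letters occurred in 12.9% of promoters. The AP-1 site TGACTCA was in 0 of the 5 promoters and in 4.05% of all. A match describes these letters only, and the arrays do not show whether a factor was bound.

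Levels are given as log2 of the background-subtracted intensity minus the array's 75th percentile over probes well above background on all arrays, so a level of 0 is that percentile. Between 39.5% and 47.4% of the probes of an array were well above background. Precision is limited by the number of arrays. The 75th percentile was highest in experiment 1 (9.47 to 9.52, log2 intensity) and lay between 8.66 and 8.97 in experiment 2. All 15 hepatocyte markers, among them albumin (Alb), were well above background on every array. Transcripts of pancreatic acinar cells were abundant on 6 arrays, namely 2c and 8c of experiment 1, all 3 of experiment 2 and 8c of experiment 3, with a median of -0.19 or higher over 16 genes against -7.00 or lower on the other 9. Of these 9, 4c of experiment 1 had a median of -7.66 but the acinar marker Cpa1 at 2.89. Cpa1 was at 3.42 and 2.99 on 2c and 8c of that experiment, and at -2.38 or lower on the rest of the 9. Markers of some other liver cells were higher in 2c. Of 10 tested Kupffer cell markers 9 passed as lower in 8c and 7 as lower in 4c than in 2c, of 8 stellate markers 6 and 6, and of 8 endothelial markers 4 and 3. Over all features 2.37% and 1.27% passed in these comparisons, in either direction. Of 2 cholangiocyte markers 1 and 1 passed as lower, and of 1 lymphocyte and neutrophil marker 0 and 0. At an unadjusted p under 0.05 in limma, 1 stellate marker was higher in 8c and 1 in 4c than in 2c. The arrays lay on a pair of slides, with experiments 1 and 2 on slide 1, experiments 4 and 5 on slide 2, and experiment 3 split between them (8c on slide 2).

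**Figure D1:**
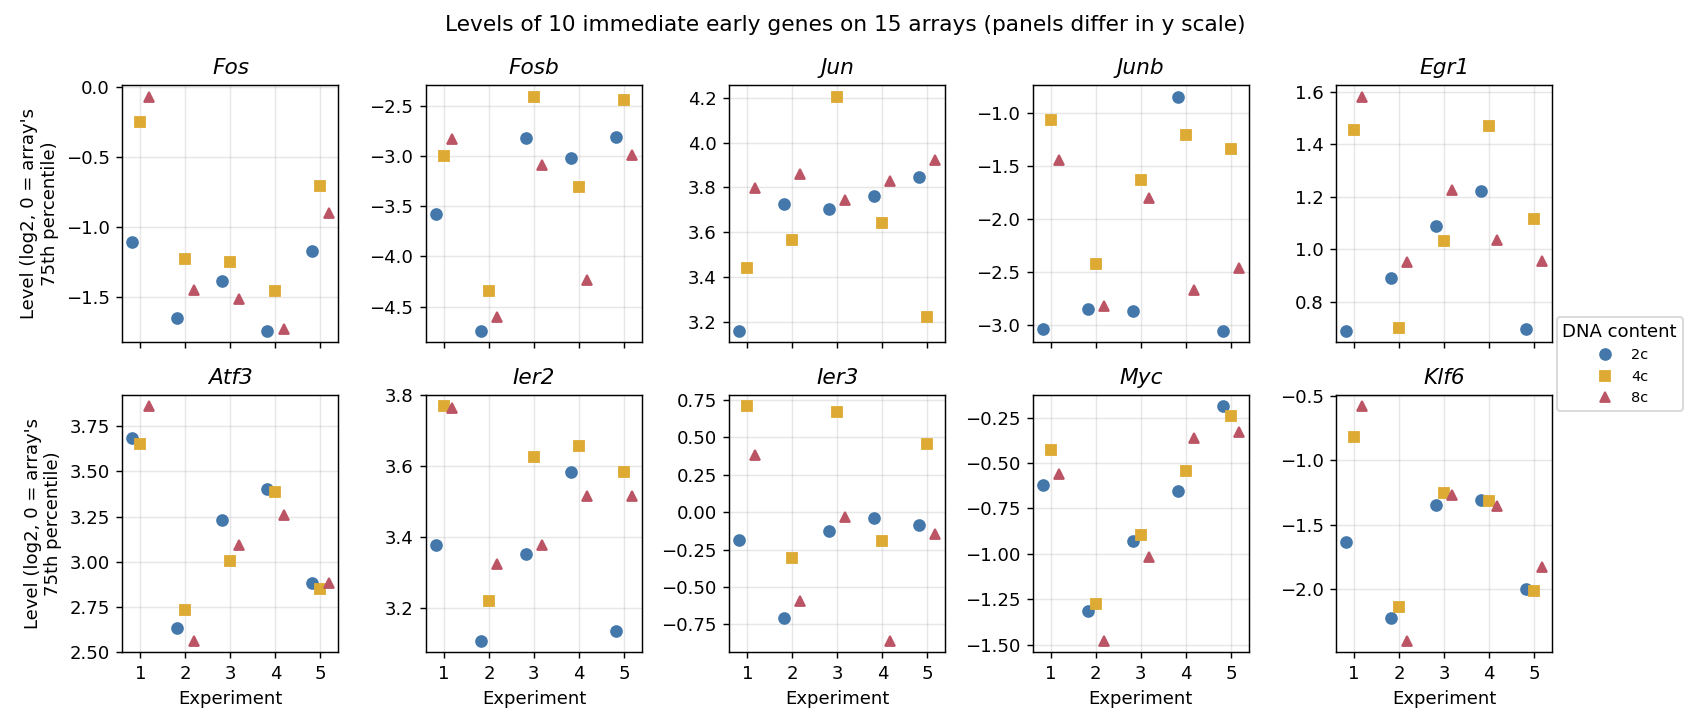
Level of each of the 10 genes (log2, 0 is the array's 75th percentile over probes above background) on the 15 arrays, by experiment on the x axis and DNA content by colour and shape, with 1 point per array and a separate y scale per panel. Atf3 and Myc group by experiment, and the 2c array of experiment 4 stands apart for Junb (-0.85 against -3.05 to -2.85 in the other 2c arrays).

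The comparison of 4c with 2c asked whether cells of 4c DNA content carried more of these transcripts after isolation. In the limma fit with the experiment as a block, 0 of the 10 genes passed at an adjusted p under 0.05, as did 1.27% of all tested features. On the probes used, Fos, Junb, Ier2 and Ier3 had the largest or most even differences, all with the higher level in 4c. These 4 of 10 had an unadjusted p under 0.05, against 15.9% of all features in either direction and 5.8% with the higher level in 4c. The median difference over the 10 genes was 0.25 (log2), and 8 of 10 differences were above 0. Over all features the median was -0.031, and 43% of differences were above 0. Neither median was tested. The count of 4 fell to 2 without experiment 3 or without experiment 5 and to 0 without the arrays with acinar transcripts, and the median of the 10 genes fell to 0.16 without experiment 1. Leaving out the acinar arrays also left fewer arrays, and 0 of 17055 features passed there after adjustment. The median of the 10 genes was then 0.18, with 8 differences above 0.

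Fos was at -1.11, -1.65, -1.38, -1.74 and -1.17 in 2c of experiments 1 to 5, and at -0.25, -1.23, -1.24, -1.45 and -0.70 in 4c. The 4c array lay above the 2c array of the same experiment in 5 of 5 experiments, a pattern seen with the higher level in 4c for 5.27% of all features. The levels of the groups overlapped. The fitted difference was 0.43 (log2, SE 0.14, 95% interval 0.13 to 0.74), a fold of 1.35, and it did not pass (limma, unadjusted p = 0.0102, adjusted p = 0.17). Its single differences ran from 0.14 in experiment 3 to 0.86 in experiment 1.

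Junb had the largest difference of the 10 and the least even one. Its 2c levels were -3.04, -2.85, -2.86, -0.85 and -3.05, and its 4c levels -1.07, -2.43, -1.64, -1.21 and -1.34. In 4 experiments 4c lay above 2c by 0.42 to 1.96, whereas in experiment 4 it lay 0.36 below (log2 difference -0.36), and the 2c array of that experiment was the highest of all 15 for this gene. The fitted difference was 0.99 (SE 0.40, 95% interval 0.11 to 1.87), a fold of 1.99 with an interval from 1.08 to 3.67, and did not pass (limma, adjusted p = 0.266). Without experiment 4 it was 1.33, with an adjusted p of 0.0568 in limma.

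Ier3 had its 4c and 2c levels in the same order as Junb in each experiment. It was at -0.19, -0.71, -0.13, -0.041 and -0.087 in 2c and at 0.71, -0.31, 0.67, -0.20 and 0.45 in 4c. The 4c array was the higher 1 in experiments 1, 2, 3 and 5 and the lower 1 in experiment 4. The difference was 0.50 (SE 0.16, 95% interval 0.13 to 0.86) and did not pass over all arrays (limma, unadjusted p = 0.0124, adjusted p = 0.183). Without experiment 4 it was 0.66 and passed (limma, adjusted p = 0.0485), the only 1 of the 10 genes to pass in any fraction comparison under any alternative tried.

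Ier2 was at 3.38, 3.11, 3.35, 3.58 and 3.13 in 2c and at 3.77, 3.22, 3.63, 3.66 and 3.58 in 4c. Here 4c lay above 2c in 5 of 5 experiments, by 0.073 to 0.45. The difference was 0.26 (SE 0.084, 95% interval 0.073 to 0.45), and did not pass (limma, unadjusted p = 0.0112, adjusted p = 0.176). Its second, dimmer probe gave -0.11 (SE 0.20), so the direction rests on the brighter probe, which has 10 spots per array.

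On the probes used in the tests, the remaining 6 genes had differences from -0.042 to 0.29 between 4c and 2c, with adjusted p from 0.483 to 0.955 in limma. Their 95% intervals leave room for differences in either direction. Fosb had 0.29 (-0.17 to 0.76), Egr1 0.24 (-0.10 to 0.57) and Klf6 0.19 (-0.15 to 0.53). For Klf6, experiment 1 alone contributed 0.81, and the other 4 experiments lay between -0.022 and 0.096. Its dimmer probe did not share this excess, with -0.0038 in experiment 1 and -0.26 in the fit. Atf3 and Myc had narrow intervals around 0, at -0.21 to 0.12 and -0.11 to 0.24. The place of Jun among these 6 depends on the probe. Its brighter probe, with 1 spot per array, gave -0.025. The dimmer Jun probe, with 10 spots per array, gave 0.36 (limma over single probes, unadjusted p = 0.00776, adjusted p = 0.157).

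**Figure D2:**
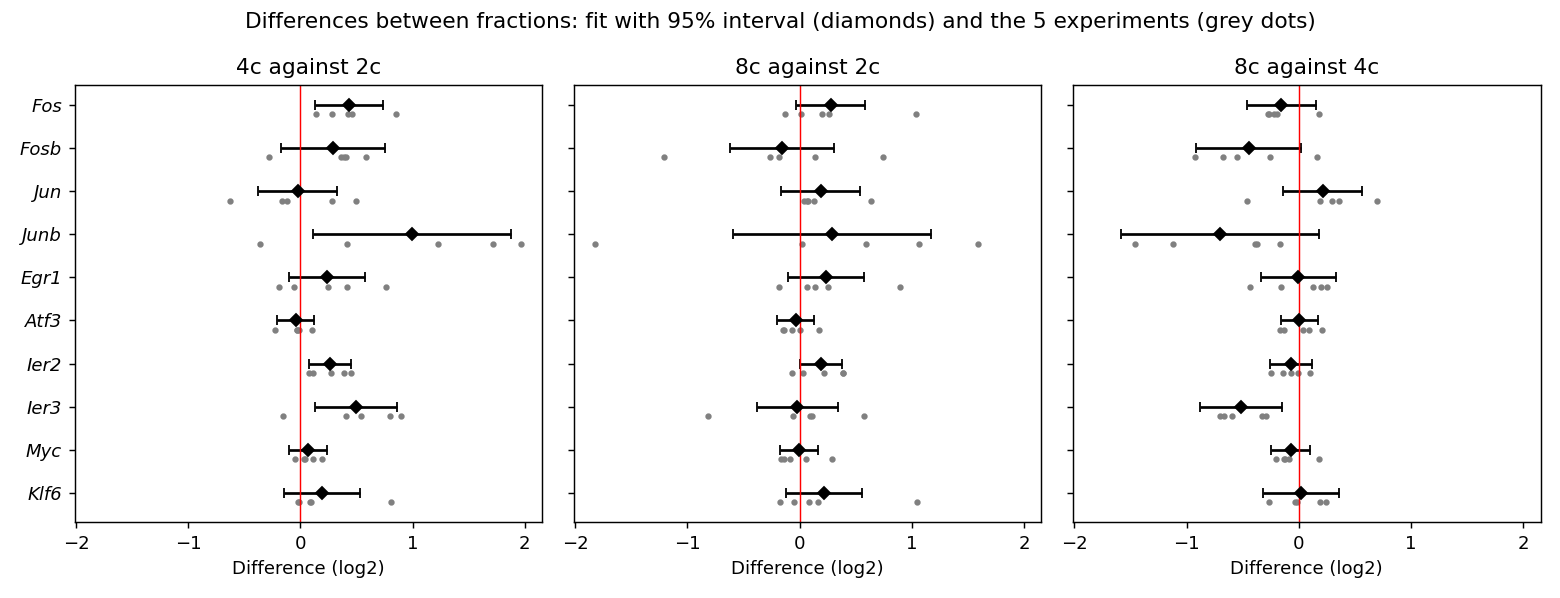
Log2 difference between fractions for the 10 genes, 1 panel per comparison. Diamonds and bars give the limma estimate with its 95% interval over 5 experiments, and grey dots give the 5 single differences. The bars of Fos, Junb, Ier2 and Ier3 lie above 0 for 4c against 2c, and that of Ier3 lies below 0 for 8c against 4c, with none passing after adjustment.

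Several other liver cell types gave lower summed marker levels in 4c than in 2c. The mean levels of Fos, Junb, Ier2 and Ier3 went the other way and were higher in 4c. The summed level of 14 Kupffer cell markers ran from -0.21 to 4.03 (log2) in 2c, from -2.20 to -0.51 in 4c and from -2.64 to -0.63 in 8c. The lowest 2c value was that of experiment 4 and the highest that of experiment 1. Of the defining markers, Clec4f was above background on 14 arrays, whereas Marco was above background on 0. The stellate markers summed to 0.21 to 3.39 in 2c and to -1.68 to -0.31 in 4c, and the endothelial markers to -1.35 to 1.05 and -2.83 to -1.49. The part of these cells in the differences of the immediate early genes was not tested. In such bulk samples, fewer cells of a type and less RNA per cell cannot be told apart.

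Between 8c and 2c, 0 of the 10 genes passed in limma, as did 2.37% of all features. Only Ier2 had an unadjusted p under 0.05, as did 15% of all features in either direction and 6.37% with the higher level in 8c. The median difference was 0.19 over the 10 genes, 6 of them above 0, and -0.023 over all features. Experiment 1 carried much of this median, which was -0.0090 without it. The sign of the median also turned with the choice of probe: it was -0.014, with 4 of 10 differences above 0, both when probes were averaged per gene and when Jun, Ier2 and Klf6 entered with the dimmer probe. The 8c levels of Ier2 were 3.76, 3.32, 3.38, 3.52 and 3.52, above 2c in 4 of 5 experiments, with a difference of 0.19 (SE 0.084, 95% interval 0.0016 to 0.38; limma, adjusted p = 0.329), whereas its dimmer probe gave -0.35.

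On its brighter probe, which has 1 spot per array, Jun was the only gene with 8c above 2c in 5 of 5 experiments, as were 7.19% of all features. It was at 3.16, 3.73, 3.71, 3.76 and 3.85 in 2c, at 3.44, 3.57, 4.21, 3.64 and 3.22 in 4c and at 3.80, 3.86, 3.74, 3.83 and 3.92 in 8c. In 4 experiments the excess of 8c over 2c was 0.037 to 0.13, and in experiment 1, where 2c was the lowest of the 5 2c arrays, it was 0.64. The fitted difference was 0.19 (95% interval -0.16 to 0.54; limma, adjusted p = 0.639). On this probe the 8c arrays were the most even group, with an SD of 0.067 against 0.27 in 2c and 0.37 in 4c. The dimmer Jun probe, with 10 spots per array, had 8c above 2c in 4 of 5 experiments and SDs of 0.20 in 8c, 0.27 in 2c and 0.17 in 4c, so neither pattern was shared by both probes.

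The other 8c levels returned toward those of 2c or varied with the experiment. Fos was at -0.068, -1.45, -1.51, -1.73 and -0.90 in 8c. Its difference from 2c was 1.04 in experiment 1 and between -0.13 and 0.27 elsewhere (fit 0.28, 95% interval -0.029 to 0.58; limma, adjusted p = 0.385). Klf6 was at -1.63, -2.22, -1.35, -1.31 and -1.99 in 2c and at -0.58, -2.40, -1.27, -1.35 and -1.83 in 8c. Its 8c minus 2c difference was 1.05 in experiment 1 and between -0.17 and 0.17 in the other 4. On the dimmer Klf6 probe the difference in experiment 1 was 0.047.

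Egr1 was at 0.69, 0.89, 1.09, 1.22 and 0.70 in 2c, at 1.46, 0.70, 1.03, 1.47 and 1.11 in 4c and at 1.58, 0.95, 1.23, 1.03 and 0.95 in 8c. Again the 2c array of experiment 1 was low and its partners high, while in experiment 4 the 8c array was the lowest of its 3. The 8c against 2c difference was 0.23 (95% interval -0.10 to 0.57; limma, adjusted p = 0.526), and 8c and 4c had nearly equal means of 1.15 each (SD 0.27 and 0.32, n = 5).

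Between 8c and 4c, 0 of the 10 genes passed in limma, as did 0.651% of features, and Ier3 alone had an unadjusted p under 0.05, against 7.76% of all features in either direction and 3.21% with the lower level in 8c. Ier3 stood at 0.38, -0.60, -0.035, -0.86 and -0.14 in 8c, below 4c in 5 of 5 experiments by similar steps of 0.29 to 0.70. The difference was -0.52 (SE 0.16, 95% interval -0.88 to -0.15; limma, unadjusted p = 0.0101, adjusted p = 0.433). Junb was at -1.45, -2.82, -1.80, -2.67 and -2.47 in 8c, also below 4c in 5 of 5 experiments, with a difference of -0.70 (95% interval -1.59 to 0.18; limma, adjusted p = 0.683). Of all features, 4.71% were lower in 8c than in 4c in 5 of 5 experiments. Fosb had a difference of -0.45 (95% interval -0.91 to 0.017; limma, adjusted p = 0.64), with 8c below 4c in 4 of 5 experiments.

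The levels of the compared fractions overlapped for all 10 genes in all 3 comparisons. They did not overlap for 1.32% of all features between 4c and 2c, 1.36% between 8c and 2c and 0.557% between 8c and 4c. Within an experiment, 4c was the highest fraction in 4 of 5 experiments for Fos, Junb, Ier2 and Ier3, and 2c was the lowest in 4 of 5 for Fos, Junb and Ier2. For Jun, 8c was the highest in 4 of 5 on the brighter probe and in 2 of 5 on the dimmer. On the dimmer Ier2 probe, 4c was the highest in 2 of 5 and 2c in 3 of 5. No neighbouring fractions in these orders differed beyond the test's threshold for any gene.

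**Figure D3:**
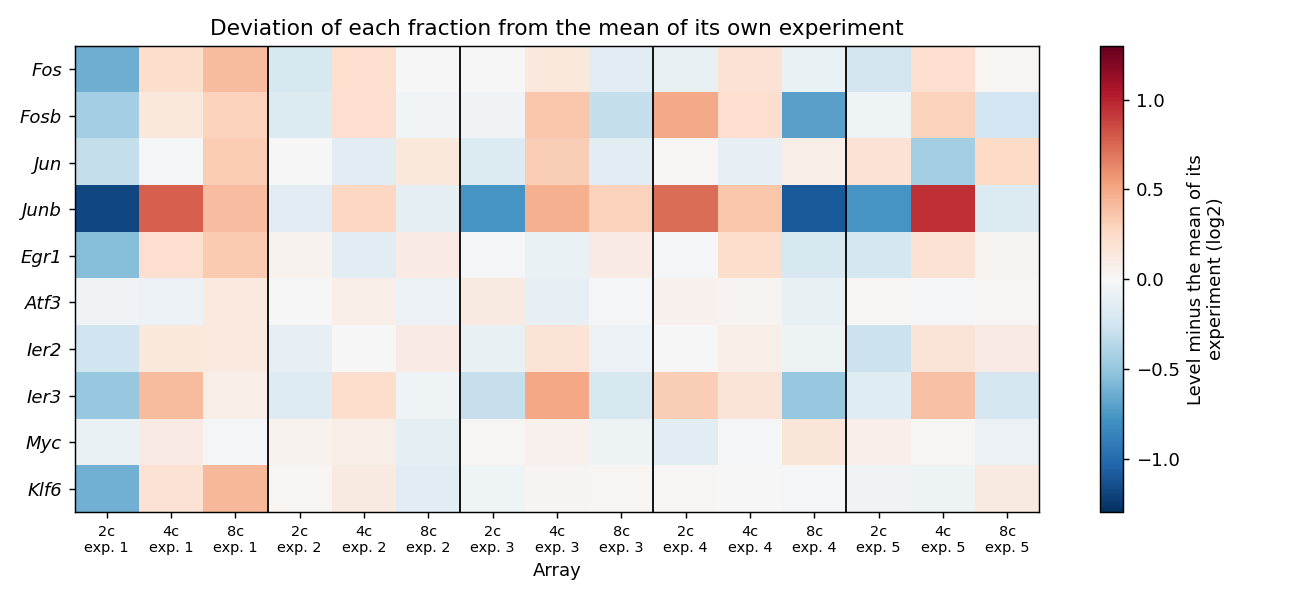
Level of each gene minus the mean of the 3 fractions of its own experiment (log2 colour scale, red above and blue below the mean), with arrays ordered by experiment. In experiment 1 the 2c array lies below its experiment for all 10 genes, and in experiment 4 the 2c array is the highest of its 3 for Fosb, Junb, Ier3, Klf6 and Atf3.

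On average, 2c and 8c deviated in opposite directions in experiments 1 and 4, while 4c lay above the mean in both. By gene this did not always hold. Fos, Jun and Myc had 8c above 2c in both experiments. Averaged over the 10 genes, the 2c array of experiment 1 lay 0.46 below the mean of its experiment (mean deviation -0.46), with 4c and 8c at 0.21 and 0.25. In experiment 4, 2c and 4c lay at 0.14 and 0.12 and 8c at -0.25. In experiments 2, 3 and 5 the 4c array was the highest, at 0.092, 0.19 and 0.17. Experiment 1 came from rats of 12 weeks and experiment 4 from rats of 5 weeks. A term for the change of the 8c against 2c difference with age passed for none of the 10 genes and for 0 of 17055 features (limma, adjusted p under 0.05, 0%), and at an unadjusted p under 0.05 it held 1 of 10 genes, Fosb, and 4.81% of features.

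The comparison between experiments asked how far the level of these genes differs from one isolation to the next. Of the 10 genes, 6 differed between experiments (limma F test of the experiment terms, adjusted p under 0.05), where 37.3% of all features did. They were Atf3, Myc, Fosb, Fos, Klf6 and Ier3, and their experiment means spanned 1.79-fold to 3.52-fold. With only probes above background on all arrays, 7 of the 10 genes and 6111 of 13393 features passed. Of 15 hepatocyte markers 9 passed (60%). Experiment 2, from the oldest rats and with acinar transcripts on all 3 arrays, was the lowest for 8 of the 10 genes. Experiment 1 was the highest for 6. The experiment accounted for a median of 63.5% of the variance over the 10 genes and 54.6% over all features, and the DNA content for 13.7% and 9.37%. These are raw shares of the sum of squares, which are above 0 even without any difference. The experiment has more terms than the DNA content, so its share cannot be compared directly with that of DNA content.

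Atf3 had the largest share of its variance between experiments among the 10 genes. Its levels in 2c, 4c and 8c were 3.69, 3.65 and 3.86 in experiment 1, 2.63, 2.73 and 2.56 in experiment 2, and 3.23, 3.01 and 3.09 in experiment 3. In experiments 4 and 5 they were 3.40, 3.39 and 3.26, and 2.88, 2.85 and 2.88. Arrays of different experiments did not overlap: the levels of each experiment filled a band of their own, with experiment 2 lowest and experiment 1 highest. The experiment held 96.4% of the variance and the means spanned 2.13-fold (limma F test, adjusted p = 0.000128). The file gives positions for only 33 bases of its probe, chr13:107191582-107191614 in the rn4 assembly.

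Myc, the other gene with a narrow spread within experiments, had another order of experiments. It was at -0.62, -0.43 and -0.56 in experiment 1, -1.31, -1.28 and -1.48 in experiment 2, and -0.93, -0.90 and -1.02 in experiment 3. Experiment 4 had -0.65, -0.54 and -0.36, and experiment 5 had -0.19, -0.24 and -0.33. The highest level was thus in experiment 5 and not in experiment 1, and experiments 1 and 4 overlapped. The experiment held 95.6% of the variance, with a span of 2.15-fold (limma F test, adjusted p = 0.000148).

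Fosb had the widest span, 3.52-fold (limma F test, adjusted p = 0.00273), with experiment means of -3.14, -4.56, -2.77, -3.52 and -2.75. The low mean of experiment 2 decided its test, since without that experiment Fosb did not pass (limma F test, adjusted p = 0.188). Its 2c levels were -3.58, -4.74, -2.82, -3.03 and -2.81, its 4c levels -3.00, -4.35, -2.41, -3.31 and -2.45, and its 8c levels -2.84, -4.60, -3.09, -4.23 and -2.99. The background-subtracted intensity of its probe was 15.4 to 24.5 in experiment 2 and 33.2 to 115 elsewhere, with 1 spot per array. Klf6 spanned 2.36-fold (adjusted p = 0.00384 in limma), lowest in experiments 2 and 5. Fos spanned 2.24-fold (adjusted p = 0.00356), highest in experiments 1 and 5 and lowest in experiment 4.

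Ier3 spanned 1.79-fold (limma F test, adjusted p = 0.0336) and lost its call without experiment 1, 2 or 5 (adjusted p from 0.0581 to 0.183). Ier2, at 1.34-fold, did not pass (adjusted p = 0.0569 in limma), and passed under 4 alternatives, among them quantile normalization (adjusted p = 0.03). Egr1, Junb and Jun did not pass either (adjusted p = 0.287, 0.375 and 0.469). Junb had a span between experiments of 2.17-fold, but its fractions within an experiment lay 1.43 apart on average (log2), against 0.16 for Atf3 and 0.19 for Myc. For most arrays experiment, age and slide cannot be told apart. Within slide 1, Fosb, Atf3, Ier3 and Myc passed, 4 of the 10 genes, as did 970 of all 17055 features. Within slide 2, and without the 6 arrays with acinar transcripts, 0 of 10 passed. Over all features 96 and 494 passed in these settings, against 6364 with all arrays.

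**Figure D4:**
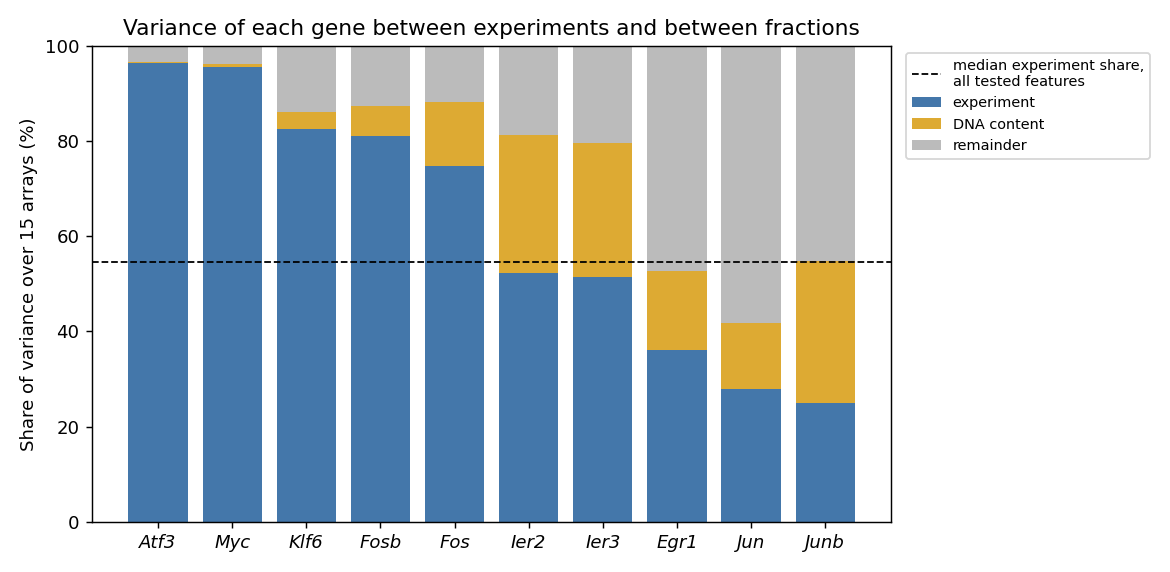
Share of the variance over 15 arrays (percent) held by the experiment, by DNA content and by the remainder for each gene, ordered by the share of the experiment. Shares are raw and not corrected for the number of terms. The dashed line is the median share of the experiment over all tested features, 54.6%. Atf3 and Myc lie above 95% for the experiment, and Ier2, Ier3 and Junb hold 28.2% to 29.8% for DNA content.

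With the brighter probe of each gene, 7 of the 10 genes varied together within experiments. After the mean of each experiment was removed, Ier3, Fos, Junb, Ier2, Fosb, Egr1 and Klf6 each correlated with the mean of the other 9 genes at r from 0.72 to 0.85 over the 15 arrays. For Atf3, Jun and Myc r was 0.17, 0.14 and -0.019. The dimmer probes gave another picture, with r of 0.85 for Jun, 0.26 for Ier2 and 0.0024 for Klf6, so the place of these 3 genes depends on the probe. The highest pairs were Fosb with Ier3 (r = 0.90), Junb with Ier3 (r = 0.90), Fos with Ier2 (r = 0.83) and Fos with Klf6 (r = 0.82). Over all 45 pairs the median r was 0.37 within experiments and 0.45 without removal of the experiment means. These correlations are descriptions, since arrays of an experiment share an isolation and each array shares 1 scaling among its genes.

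Outside the 10, the genes most like their mean within experiments were Bco2, Adrm1, Psmd7, Id2, Socs3, Pim3, C12h12orf43 and Cideb, at r from 0.92 to 0.94 over 15 arrays. Of these 8, only Socs3 and Pim3 were on the lists of pathway genes read below. Socs3 encodes a feedback inhibitor of cytokine signalling and Pim3 a protein kinase. Over the arrays without removal of the experiment means the 8 most alike were Ik, Apof, Pim3, Tnfrsf12a, Hspb8, Csnk1g2, Pdxk and Zdhhc9, at r from 0.84 to 0.93. Pim3 was in both sets. It was at -0.33, -0.58, -0.41, 0.51 and -0.45 in 2c and at 0.80, -0.45, 0.26, 0.31 and 0.30 in 4c, with a difference of 0.50 (limma, adjusted p = 0.277). As for Junb and Ier3, the 2c array of experiment 4 was the highest of its group.

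Genes that share the pathway were read from lists. Of 33 tested other primary response genes, 1 passed in 8c against 2c, and 0 passed in 4c against 2c and 0 in 8c against 4c. The gene that passed was Ccn1, which encodes a matricellular protein. It was at 0.27, -1.73, -0.21, 0.30 and -0.86 in 2c and at 0.24, -2.92, -0.96, -0.50 and -1.61 in 8c, lower in 5 of 5 experiments, as were 8.07% of all features (log2 difference -0.70, SE 0.15; limma, adjusted p = 0.0372). In experiment 1 its levels were nearly equal. In 4c against 2c, 7 of the 33 had an unadjusted p under 0.05 with the higher level in 4c and 1 with the lower. Over all features 5.8% had the higher and 10.1% the lower level. The list median was 0.11. Unadjusted, 4 of the 33 had the higher and 3 the lower level in 8c against 2c, and 2 the lower level in 8c against 4c. The shares over all features were 6.37%, 8.59% and 3.21%. Jund, the third Jun family gene, had -0.054 in 4c against 2c (limma, adjusted p = 0.869), and Errfi1, which inhibits the EGF receptor, 0.070 (adjusted p = 0.617). Between experiments 22 of the 33 passed (66.7%), against 37.3% of all features.

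Of 15 feedback inhibitors, among them phosphatases of MAP kinases and Socs3, 0 passed in any fraction comparison. Between experiments 13 (86.7%) passed, against 37.3% of all features. At an unadjusted p under 0.05, 1 had the higher and 2 the lower level in 4c against 2c. Over all features 5.8% had the higher and 10.1% the lower level. The brightest were Zfp36l1 and Zfp36l2, which destabilise AU-rich mRNAs, with 4c against 2c differences of 0.28 and -0.0052 (limma, adjusted p = 0.272 and 0.988). Of 21 upstream kinases and factors 0 passed between fractions and 7 (33.3%) between experiments, with 1 higher and 2 lower in 4c at an unadjusted p under 0.05. The brightest of these, the kinases Mapk3 and Mapk14, had -0.0047 and 0.047 in 4c against 2c. Of 10 further AP-1 partners 0 and 5 passed, and 3 were higher in 4c at an unadjusted p under 0.05, with 0.20 for Atf4 and 0.30 for Atf5 in 4c against 2c (limma, adjusted p = 0.262 and 0.317).

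Stress genes outside this family also gave no call between fractions. Of 13 genes of the integrated stress response 0 passed, and 10 (76.9%) passed between experiments, against 37.3% of all features. At an unadjusted p under 0.05, 5 had the higher and 1 the lower level in 4c against 2c. Over all features 5.8% had the higher and 10.1% the lower level. Gadd45g and Nupr1, the brightest, had 0.18 and 0.19 in 4c against 2c (limma, adjusted p = 0.217 and 0.203). Of 14 heat shock genes 0 passed between fractions and 6 between experiments (42.9%), and 1 was higher and 2 lower in 4c unadjusted, with 0.054 for Hspa8 and -0.0098 for Hspe1 in 4c against 2c. Of 9 NF-kB and cytokine genes 0 and 5 passed, 4 had the lower level in 8c against 2c at an unadjusted p under 0.05, where 8.59% of all features had, and the differences of the brightest, Cxcl1 and Irf1, were -0.44 and -0.081 in that comparison (limma, adjusted p = 0.118 and 0.709). Of 14 targets of Myc 0 and 9 passed, and 1 was higher and 1 lower in 4c unadjusted, with 0.090 for Ldha and 0.045 for Npm1 in 4c against 2c.

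Jun, Ier2 and Klf6 each had a second probe, and 1 probe sequence of each gene is shown because the values depended on the probe. They are the brighter Jun probe (chr5:115359410-115359469, minus strand), the dimmer Ier2 probe (chr19:25159377-25159436, plus) and the brighter Klf6 probe (chr17:75579782-75579841, minus), all in rn4. The Jun and Klf6 probes shown gave the values above, and the Ier2 probe shown is the one that was not used in the tests. The sequences are in lower case throughout, as no motif was marked.
Jun: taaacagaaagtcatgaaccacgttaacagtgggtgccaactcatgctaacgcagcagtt
Ier2: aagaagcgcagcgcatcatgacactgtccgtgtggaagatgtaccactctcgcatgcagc
Klf6: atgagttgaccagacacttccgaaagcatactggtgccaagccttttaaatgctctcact

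The probe pairs differed in how far they varied together. Over 15 arrays the 2 probes correlated at r = 0.76 for Klf6, 0.40 for Ier2 and 0.20 for Jun, and after removal of the experiment means at 0.11, 0.0042 and 0.39. The second Jun probe, with 10 spots per array against 1 and a median SD between spots of 0.036 (log2), read 2.94, 2.90, 2.97, 3.51 and 2.84 in 2c and 3.53, 3.15, 3.49, 3.51 and 3.27 in 4c. Its 4c against 2c difference was 0.36 (SE 0.11, 95% interval 0.12 to 0.60; limma over single probes, unadjusted p = 0.00776, adjusted p = 0.157), whereas the first probe gave -0.025 (SE 0.16). Against 2c, 8c differed by 0.32 on the second probe (SE 0.11; adjusted p = 0.189 in limma). The second Klf6 probe gave -0.26 in 4c and -0.28 in 8c against 2c, with the opposite sign to the first.

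**Figure D5:**
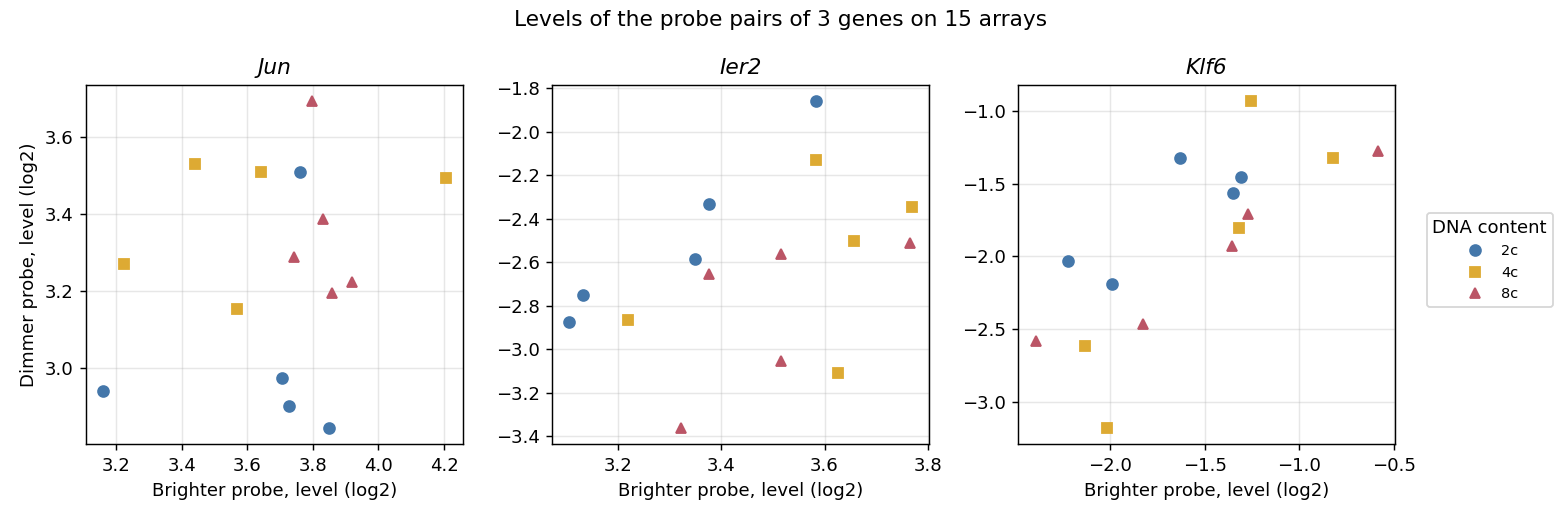
Level of the dimmer probe (y axis, log2) against that of the brighter probe (x axis, log2) for Jun, Ier2 and Klf6, with 1 point per array and DNA content by colour and shape. The points follow a line for Klf6 (r = 0.76) and scatter for Jun (r = 0.20).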

How the data were processed

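RNA of 15 sorted fractions was measured on one-colour Agilent arrays. Per the file headers, the deposited values are linear intensity per spot, and the Agilent Feature Extraction version was 11.5.1.1 there and 10.7.3.1 per the submitters' processing notes. The processed signal is the authors' background-subtracted intensity, with no normalization between arrays. Control spots and outlier spots were left out, spots of a probe were averaged, and log2 values were scaled to the 75th percentile of those 16211 probes that passed the background flag on all arrays. Probes above background on at least 5 arrays were tested, with the brightest per gene. Positions refer to rn4; its annotation was not used here.

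Limma 3.58.1 (R 4.3.3; lmFit, eBayes) was fitted with DNA content and experiment as a block, p values adjusted after Benjamini and Hochberg over 17055 features, and two-sided. The code was tested on simulated data. The block follows the design of 5 independent experiments: deviations of arrays from their group means correlated at a median of 0.59 (0.04 to 0.79) within an experiment and -0.13 between. Whether replicates are separate animals is given only as independent experiments.

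The 10 genes, the lists of pathway genes (other primary response, feedback inhibitors, upstream kinases and factors, AP-1 partners, heat shock, integrated stress, NF-kB and cytokines, Myc targets) and the cell type markers were chosen with earlier results of these data known. Named were the 10 genes; per list and comparison up to 4 that passed, or the 2 brightest; and the 8 most alike by each correlation. Alternatives covered scaling, background correction, filters, the deposited intensity table, probes, blocks, slides and left-out arrays.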

Additional observations from a re-analysis of the deposited data

Results flagged for a closer look

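Of 30 groups of 5 arrays (10 genes in 3 fractions), 3 had a sample far from the others, each in 2c; chance alone flags about 1 in 20 groups. In each, the gap to the nearest array exceeded 0.71 of the range of the group. Junb in 2c of experiment 4 was at -0.85, against -3.05 to -2.85 in the other 2c arrays (gap 0.905 of the range). Jun in 2c of experiment 1 was at 3.16 on its brighter probe, against 3.71 to 3.85 (gap 0.794). Ier3 in 2c of experiment 2 was at -0.71, against -0.19 to -0.041 (gap 0.778). The first is the array with the lowest summed level of Kupffer cell markers in 2c (-0.21), the second that with the highest (4.03), and the third 1 of 6 arrays with acinar transcripts. The part of these in the levels was not tested.

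For Fosb, 8c lay above 2c in both experiments with rats over 10 weeks old (mean difference 0.44, log2) and below it in the 3 experiments with younger rats (-1.21 to -0.19), a difference between the age classes of 0.992. This split was picked out by sign alone and is not shown by a test: the age term had an unadjusted p of 0.0171 and an adjusted p of 0.959 in limma. Experiment 1 gave 0.74 and experiment 2 gave 0.14, the latter at intensities of 15.4 in 2c and 16.6 in 8c. Both experiments lay on slide 1 and had acinar transcripts in 2c and 8c. The part of slide, acinar transcripts and age was not tested separately.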

How the results depend on the processing

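Of the 10 genes, 0 passed in 8c against 2c and in 8c against 4c under every alternative run, and 0 in 4c against 2c except without experiment 4, where 1 did (range 0 to 1 over the left-out experiments). Between experiments 4 to 7 passed when 1 experiment was left out, and 0 within slide 2 and 0 without the arrays with acinar transcripts, which leave fewer arrays.

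Counts over all features moved more. For 8c against 2c, 404 passed, and 185 with normexp, 229 without a filter on dim probes, 219 with probes above background on all arrays only, 91 with the slide as block, 0 within slide 1, 0 within slide 2, 0 without acinar arrays and 102 to 274 without 1 experiment. For 4c against 2c, 217 passed, and in the same order 53, 0, 130, 5, 0, 0, 0 and 3 to 185. For 8c against 4c, 111 passed, and 65 with normexp, 40 with the strict filter, 41 with the slide, 1 and 0 within slides 1 and 2, 0 without acinar arrays and 51 to 128 without 1 experiment. Between experiments 6364 passed, and 970 within slide 1, 96 within slide 2, 494 without acinar arrays and 3489 to 7897 without 1 experiment. Without the replicate block 39, 3 and 0 features passed in the 3 comparisons; it changed no call of the 10 genes there. Normexp moved the median of all features to -0.11 in 8c against 2c, and no filter to -0.15 and, in 4c against 2c, -0.12.

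Of 600 single differences of the 10 genes, 57 turned sign, none with a call (largest size 0.62, lowest adjusted p = 0.149). With the 75th percentile over all probes these were, in 4c against 2c, Atf3 0.026 and Jun 0.043; in 8c against 2c, Atf3 0.043, Ier3 0.060 and Myc 0.071; in 8c against 4c, Egr1 0.0069. With median scaling they were Jun 0.0064; Atf3 0.0056, Ier3 0.022 and Myc 0.033; Egr1 0.0061. With quantile normalization Myc had 0.013 in 8c against 2c and Atf3 -0.027 in 8c against 4c. With the dimmer probes, chosen after seeing the data, they were Jun 0.36, Ier2 -0.11 and Klf6 -0.26; Ier2 -0.35 and Klf6 -0.28; Jun -0.034 and Klf6 -0.021. With the mean of probes they were Jun 0.17 and Klf6 -0.034 in 4c, and Ier2 -0.079 and Klf6 -0.032 in 8c, against 2c. Within slide 1 they were Jun 0.21; Fosb 0.43, Atf3 0.0088 and Ier3 0.37; Fos 0.063, Egr1 0.25 and Ier2 0.045. Within slide 2 they were Klf6 -0.016; Junb -0.62 and Myc 0.076; Atf3 -0.049 and Myc 0.045. Without acinar arrays they were Junb -0.53, Egr1 -0.030 and Myc 0.076 in 8c against 2c, and Atf3 -0.015 and Myc 0.045 in 8c against 4c. Leaving out 1 experiment gave ranges across 0 in 4c against 2c for Atf3 (-0.077 to 0.0042) and Jun (-0.16 to 0.12). In 8c against 2c they were Fosb (-0.38 to 0.11), Ier3 (-0.17 to 0.18), Junb (-0.038 to 0.82) and Myc (-0.083 to 0.031), and in 8c against 4c Atf3 (-0.045 to 0.050), Egr1 (-0.069 to 0.10) and Klf6 (-0.031 to 0.094). The cause of these turns was not tested.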
